A study of Mus musculus with 19 samples.

Results

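The 7 CXC chemokine ligand genes *Cxcl1*, *Cxcl2*, *Cxcl9*, *Cxcl10*, *Cxcl13*, *Cxcl14* and *Cxcl16* were described in retinal microglia, the resident macrophages of the retina. They were chosen by gene symbol, and all 7 were found among the 27299 genes of the series. Bulk RNA-seq compared 6 samples taken on day 3 after laser-induced choroidal neovascularization (CNV d3) with 6 samples of unlasered controls. All mice were 8 weeks old. The labels give the strain as C57BL/6J, whereas the methods name *Cx3cr1* GFP/+ mice, bred on a C57BL/6J background. Cells had been sorted as positive for CD11b and CX3CR1 and negative for Ly6C and Ly6G, with CD45 given as positive in the labels and as low in the methods, and 6 burns had been set per lasered eye. The labels do not say which samples came from separate animals, so the p-values measure only the spread between these samples.

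CXC ligands are small secreted proteins that guide leukocytes through G protein-coupled receptors. CXCL1 and CXCL2 bind CXCR2 and attract neutrophils. CXCL9 and CXCL10 are induced by interferons and bind CXCR3 on T and NK cells, and CXCL13 binds CXCR5 and attracts B cells. CXCL16 is made as a transmembrane protein that ADAM10 can release from the membrane, and its receptor is CXCR6. CXCL14 is a ligand of epithelia and other tissues for which no receptor is generally agreed.

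The libraries held between 10963178 and 22335233 reads on genes in control and between 23532260 and 29523018 in CNV d3. Between 15076 and 17224 genes had reads in control and between 18276 and 19116 in CNV d3. All control samples were listed in 2 parts, but of CNV d3 only replicate 4. The listing thus nearly followed the groups, and a technical difference tied to it cannot be told apart from the laser. Values are normalized counts, that is, reads per gene after division by a DESeq2 size factor. A signal of 3 reads, taken as the lowest that a sample can show, was worth 3.01 to 5.96 normalized counts in control and 2.22 to 2.68 in CNV d3. PCR copies cannot be told from molecules here, so this limit covers counting error only. CNV d3 replicates 4 to 6 held reads of the Y-linked gene *Ddx3y* (1239 to 1450 normalized counts) and *Xist* at no more than 0.866. The other 9 libraries held *Xist* between 3116 and 9795 and no *Ddx3y* read. No control held *Ddx3y*, so in CNV d3 replicates 4 to 6 this pattern cannot be told apart from the laser. The labels name no sex, so each member was also tested with CNV d3 replicates 1 to 3 alone.

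Of the 7 genes, 3 rose at CNV d3 (*Cxcl13*, *Cxcl14* and *Cxcl16*) and 0 fell at an adjusted p under 0.05 (limma, Benjamini-Hochberg over all genes), where 8.29% of all genes rose and 4.57% fell. The same 3 genes had no overlap between the groups, as had 4.64% of all genes in this direction. Of these, *Cxcl13* and *Cxcl14* were also increased DEG, defined as in the methods by a log2FC above 1.5, against 3.91% of all genes. *Cxcl1* and *Cxcl2* were at or near the detection limit. The median log2FC of the 7 members was 0.88, which is the value of *Cxcl2*, beside 0.15 over all 27299 genes and 0.06 over the 9713 genes with a mean of at least 100 normalized counts. The 3 calls were made with CNV d3 replicates 1 to 3 alone as well.

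**Figure D1:**
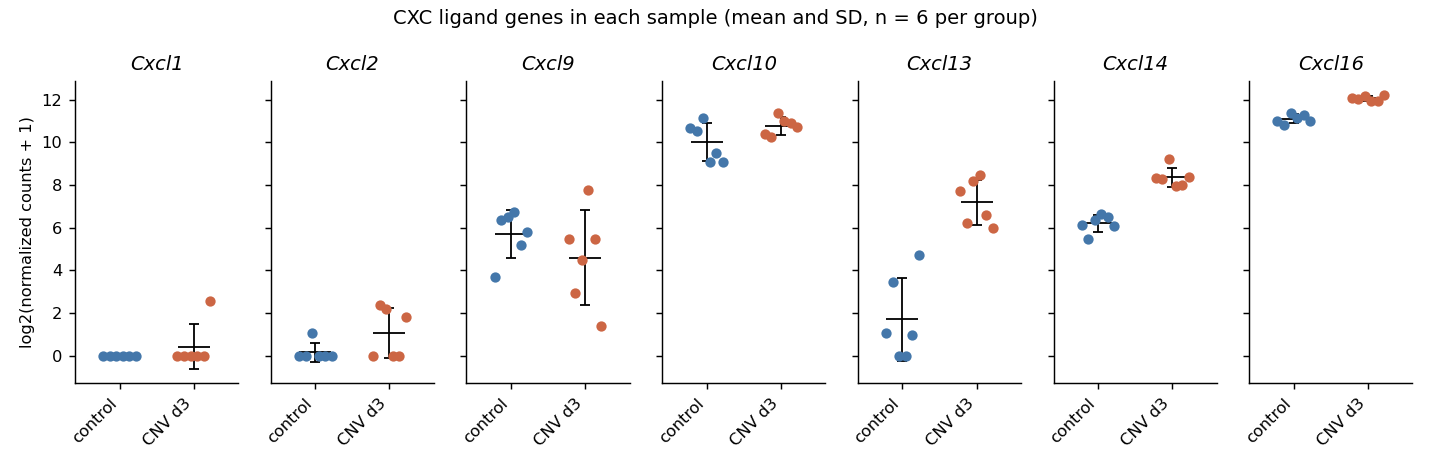
Each point is 1 sample, with the level on the y-axis as log2(normalized counts + 1). Control is blue and CNV d3 is orange, and the bars give the mean and SD of the 6 samples. The groups are apart for *Cxcl13*, *Cxcl14* and *Cxcl16* and overlap for the other 4 genes.

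The upstream sequences of the interferon-induced ligands and of both DEG are shown so that the known response elements of interferon and NF-kappaB signalling can be looked for in them. The 250 bases before the RefSeq transcription start (GRCm38.p6) were read for the 6 members that have an entry. They are given on the strand of the gene, with matches to the interferon-stimulated response element (ISRE, GAAA and GAAA with any 2 bases between), the gamma-activated site (GAS, TTC and GAA with any 3 bases between) and the NF-kappaB consensus site in capitals. Both strands were searched, and ISRE, GAS and NF-kappaB matches stand in 2.98%, 7.02% and 7.25% of all 32851 promoters.
Cxcl9, chr5:92328080-92328329, minus strand: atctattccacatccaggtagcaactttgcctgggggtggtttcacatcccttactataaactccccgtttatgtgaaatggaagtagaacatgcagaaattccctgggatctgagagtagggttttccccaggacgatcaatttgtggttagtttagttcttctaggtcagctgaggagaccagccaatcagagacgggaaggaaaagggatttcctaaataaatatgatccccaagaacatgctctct
Cxcl10, chr5:92348890-92349139, minus strand: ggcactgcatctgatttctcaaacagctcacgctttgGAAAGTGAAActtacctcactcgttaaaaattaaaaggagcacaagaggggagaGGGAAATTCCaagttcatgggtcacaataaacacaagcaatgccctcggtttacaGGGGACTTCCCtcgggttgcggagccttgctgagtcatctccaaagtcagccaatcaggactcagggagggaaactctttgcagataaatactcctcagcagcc
Cxcl13, chr5:95956689-95956938, plus strand: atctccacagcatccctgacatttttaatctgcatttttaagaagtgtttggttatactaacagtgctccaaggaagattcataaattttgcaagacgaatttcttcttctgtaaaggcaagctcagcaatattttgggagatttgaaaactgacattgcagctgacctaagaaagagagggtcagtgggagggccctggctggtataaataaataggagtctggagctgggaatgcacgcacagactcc
Cxcl14, chr13:56296552-56296801, minus strand: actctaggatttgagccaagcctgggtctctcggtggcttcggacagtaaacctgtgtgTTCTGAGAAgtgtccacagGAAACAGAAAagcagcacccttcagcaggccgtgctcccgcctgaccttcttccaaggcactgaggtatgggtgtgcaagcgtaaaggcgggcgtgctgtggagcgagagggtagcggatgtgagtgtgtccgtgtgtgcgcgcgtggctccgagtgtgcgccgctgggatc
In *Cxcl10*, the capitals are an ISRE match from 213 to 204 bases before the start, and NF-kappaB matches from 159 to 150 and from 104 to 94 bases, of which the latter holds overlapping matches. *Cxcl14* held a GAS match from 191 to 183 bases and an ISRE match from 172 to 163 bases before its start. No match was found in the windows of *Cxcl9* and *Cxcl13*. *Cxcl1* and *Cxcl2* held the same pair of overlapping NF-kappaB matches, one on each strand, from 71 to 61 and from 97 to 87 bases before the start. Thus the 2 members that were DEG differed in these letters, and a match is not evidence of a bound site. Only these letters in 250 bases were searched, so the lack of a match is not evidence that an element is missing.

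**Figure D2:**
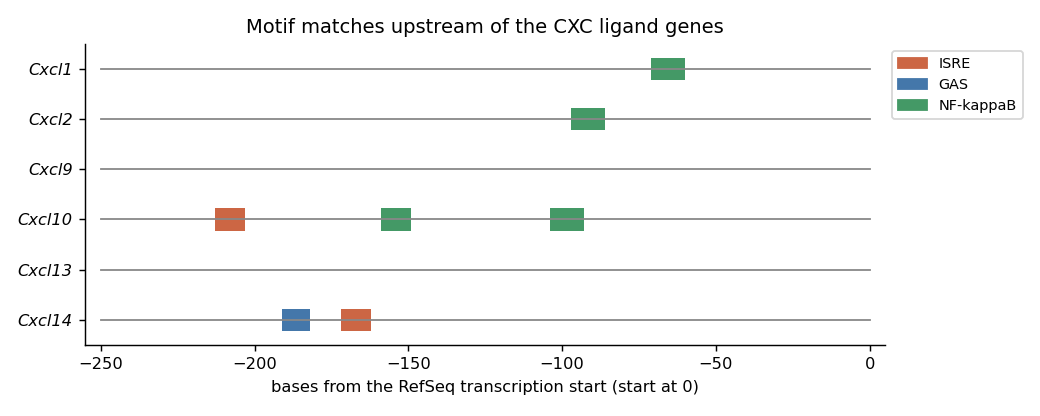
Positions of the motif matches in the 250 bases upstream of 6 genes, in bases from the transcription start on the x-axis. *Cxcl10* holds an ISRE and NF-kappaB matches, *Cxcl14* an ISRE and a GAS match, *Cxcl1* and *Cxcl2* NF-kappaB matches, and *Cxcl9* and *Cxcl13* hold none.

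*Cxcl13* changed most among the 5 members above the detection limit. Its gene lies on the plus strand at chr5:95956951-95961068 (GRCm38, Gencode M21). In CNV d3, replicates 1 to 6 had 207, 72.8, 289, 356, 96.9 and 63.1 normalized counts. In control the values were 1.07, 10.1, 0, 0, 1.00 and 25.8, and 4 of the 6 were at or under the limit of 3 reads. The lowest CNV d3 sample was therefore above the highest control, although the CNV d3 samples differed 5.63-fold among themselves. The means were 181 ± 123 and 6.34 ± 10.3 (SD, n = 6 each), a ratio of 28.5, and the log2FC was 5.48 with a 95% interval from 3.57 to 7.40 (adjusted p = 0.0009, limma). As the control values were so low, the log2FC depended on the pseudocount and was 3.46 with a pseudocount of 10. With CNV d3 replicates 1 to 3 alone it was 5.65 (adjusted p = 0.0385, limma).

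*Cxcl14* was the second DEG. It lies on the minus strand at chr13:56288643-56296551. Control samples had 43.5 to 99.5 normalized counts with a median of 74.9, and CNV d3 samples had 245 to 592 with a median of 319. All CNV d3 samples thus lay more than the whole control range above the highest control, and replicate 3 stood above the other 5, which ended at 330. The means were 74.9 ± 19.5 and 344 ± 127 (SD, n = 6 each), and the log2FC was 2.16 with a 95% interval from 1.56 to 2.76 (adjusted p = 0.0002, limma). Without CNV d3 replicate 3 it was 1.99, and with replicates 1 to 3 alone it was 2.42 (adjusted p = 0.0044, limma).

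*Cxcl16*, the transmembrane ligand, rose less and with the smallest spread. Its gene is on the minus strand at chr11:70453983-70459984. Control samples lay between 1779 and 2610 normalized counts with a median of 2153, and CNV d3 samples between 3850 and 4777 with a median of 4227. The highest and lowest samples differed 1.47-fold in control and 1.24-fold in CNV d3, so the gap between the groups was wider than the range of either. The ratio of the means was 1.93, and the log2FC was 0.96 with a 95% interval from 0.73 to 1.19 (adjusted p = 0.0001, limma). This was a call but not a DEG, since the whole interval lay below the threshold of 1.5. An exon of *Zmynd15* overlaps *Cxcl16* on the other strand, and the counting did not use strand.

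The interferon-induced ligands *Cxcl9* and *Cxcl10* did not pass the test. *Cxcl10* lies on the minus strand at chr5:92346638-92348889, where exons of *Art3* overlap it on the other strand. It had 1620, 1492, 2244, 540, 715 and 538 normalized counts in control replicates 1 to 6, and 1325, 1228, 2640, 2048, 1903 and 1661 in CNV d3 replicates 1 to 6. Control replicates 1 to 3 lay within the range of CNV d3, and control replicates 4 to 6 lay below all CNV d3 samples. The log2FC was 0.77 with a 95% interval from 0.04 to 1.498 (adjusted p = 0.170, limma). After adjustment over all genes an increase was not shown, and the interval leaves room for values from near 0 to the threshold of a DEG.

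*Cxcl9*, on the minus strand at chr5:92321347-92328079, was the only one of the 5 members with a negative log2FC. Control replicates 1 to 6 had 11.8, 80.0, 90.1, 105, 35.1 and 55.6 normalized counts, and CNV d3 replicates 1 to 6 had 42.8, 6.69, 21.5, 219, 44.1 and 1.66. CNV d3 replicate 4 was higher than every control, whereas replicate 6 was at 2 reads, and the samples of this group differed 132-fold. The log2FC was -1.11 with a 95% interval from -3.10 to 0.87 (adjusted p = 0.522, limma), and it was -1.75 without replicate 4 and -0.48 without replicate 6. *Cxcl10* relative to *Cxcl9*, as the log2 ratio within a sample, was 4.29 ± 1.56 in control and 6.17 ± 2.12 in CNV d3 (SD, n = 6 each). The difference of 1.88 did not pass a two-sided exact permutation test (p = 0.110, adjusted over 2 ratios 0.221, smallest possible p 0.0022).

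The CXCR2 ligands were hardly detected. *Cxcl1*, on the plus strand at chr5:90891241-90893115, had 0 reads in all 6 controls and in 5 CNV d3 samples, and 6 reads in CNV d3 replicate 6. *Cxcl2*, its neighbour on the plus strand at chr5:90903871-90905938, had 1 read in control replicate 3, and 5, 4 and 3 reads in CNV d3 replicates 2, 3 and 6. Neither gene passed the test (adjusted p = 0.540 and 0.287, limma), and no fold is given because both groups were mostly at or under the limit of 3 reads. The ratio of *Cxcl2* to *Cxcl1* is not given, because it was set by the pseudocount in most samples. With the controls at 0 or 1 read, a fall of these genes could not have been seen, and a rise was not shown.

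**Figure D3:**
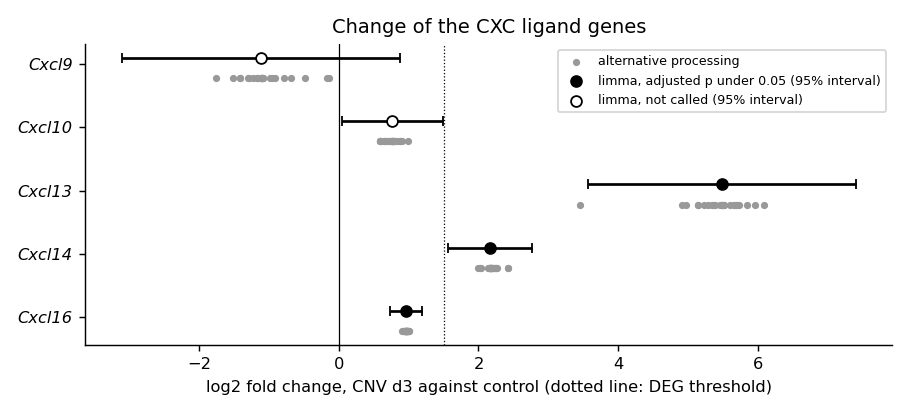
Log2 fold change of CNV d3 against control on the x-axis for the 5 members above the detection limit, with the 95% interval of limma. Filled points passed the test, grey points are the alternative ways of processing, and the dotted line marks 1.5. *Cxcl10*, *Cxcl13*, *Cxcl14* and *Cxcl16* keep to the right of 0, of which *Cxcl10* did not pass the test after adjustment over all genes. *Cxcl9* keeps to the left with an interval that crosses 0.

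To set the members beside each other, levels were divided by the length of the longest protein-coding mRNA. In control, *Cxcl10* (881 ± 518 normalized counts per kb) and *Cxcl16* (816 ± 118) were highest and did not differ beyond their spread, since each was the higher one in 3 of 6 samples. *Cxcl14* followed at 41.0 ± 10.7, and none of its samples reached either. *Cxcl9* (21.8 ± 12.2) overlapped with *Cxcl14*, and *Cxcl13* (5.51 ± 8.95) overlapped with *Cxcl9*. In CNV d3, *Cxcl16* (1578 ± 130) and *Cxcl10* (1331 ± 384) again overlapped and stood above all others. *Cxcl14* (188 ± 69.5) and *Cxcl13* (157 ± 107) came next, with *Cxcl14* higher in 4 of 6 samples. *Cxcl9* was at 19.4 ± 28.3 (SD, n = 6 each) and lay below *Cxcl13* in all 6 samples. The order of the first pair depends on the length used. Per kb of all annotated exons, *Cxcl16* was ahead of *Cxcl10* in both groups and the pair did not overlap in CNV d3.

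Of the summed level per kb, *Cxcl16* made up 49.2% ± 13.9 in control and 49.0% ± 7.33 in CNV d3, and *Cxcl10* made up 46.5% ± 15.6 and 40.0% ± 5.88. *Cxcl14* had 2.53% ± 1.08 in control and 5.68% ± 1.37 in CNV d3, and *Cxcl13* had 0.402% ± 0.722 and 4.62% ± 2.79 (SD, n = 6 each). These shares add up to the whole in each sample, so they do not move independently.

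**Figure D4:**
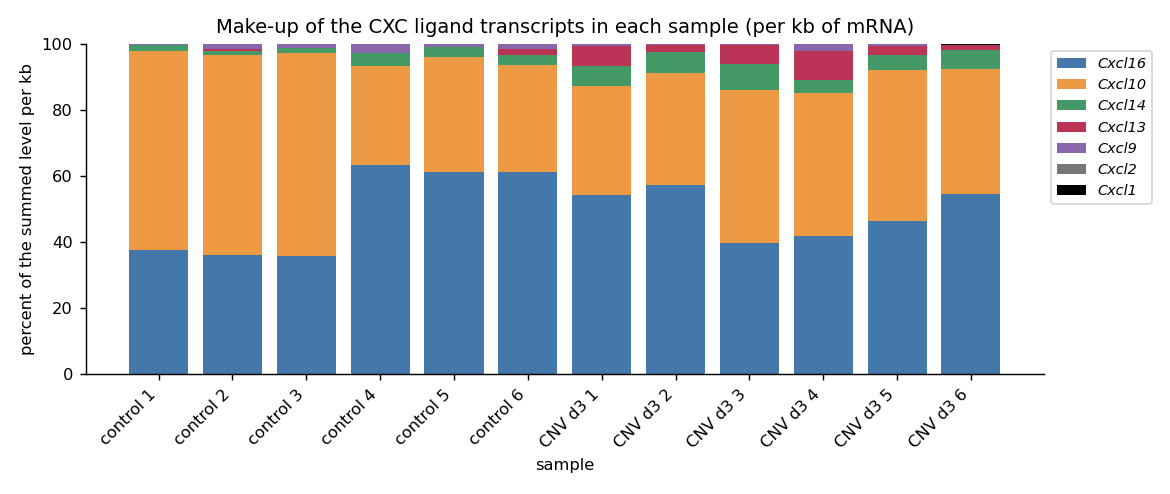
Share of each ligand, in percent of the summed level per kb of mRNA, stacked for each of the 12 samples on the x-axis. *Cxcl16* and *Cxcl10* fill most of every bar, *Cxcl10* ranges from 29.9% to 61.4% in control, and *Cxcl13* reaches 8.84% in CNV d3.

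Within the groups, the members did not vary as 1 block. After centring on the group means, the Pearson r over the 12 samples was 0.71 for *Cxcl14* and *Cxcl16*, -0.58 for *Cxcl13* and *Cxcl16*, and 0.05 for *Cxcl9* and *Cxcl10*. Among 9712 genes with a mean of at least 100 normalized counts, the gene most like *Cxcl10* was *Mrgbp* (r = 0.97), followed by *Cep55* (0.91) and *Nsf* (0.91). *Ppib* (0.92), *Parp4* (0.92) and *Ndufb10* (0.90) were most like *Cxcl14*, and *Rad51d* (0.91), *Tnpo2* (0.89) and *Abhd11* (0.88) were most like *Cxcl16*. For *Cxcl13* these were *Ppp1r2* (0.88), *Tmem65* (0.87) and *Bri3bp* (0.87), and for *Cxcl9* they were *Zfp449* (0.85), *Tmem100* (0.84) and *Fam217b* (0.83). Such values are the highest of all genes compared, over only 12 samples that share library and scaling, and are a description.

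Other genes of the CXC system were counted from lists, beside 8.29% of all genes called higher and 4.57% called lower. Of 5 further ligands listed (*Cxcl3*, *Cxcl11*, *Cxcl12*, *Cxcl17* and *Pf4*), 0 were called in either direction, with a median log2FC of -0.04. The 7 receptors listed also had 0 calls, with a median log2FC of 1.39. *Cxcr3*, the receptor of CXCL9 and CXCL10, had 47.1 ± 37.0 normalized counts in control and 5.35 ± 6.92 in CNV d3 (SD, n = 6 each; log2FC -2.87, adjusted p = 0.138, limma). *Cxcr6*, the receptor of CXCL16, had means of 18.4 and 19.9 (log2FC 1.39, adjusted p = 0.535, limma). *Cxcr5*, the receptor of CXCL13, had 28.4 and 23.7 (log2FC 1.73, adjusted p = 0.518, limma). *Cxcr6* was at 0 in 3 controls and *Cxcr5* in 4, so means and log2FC can differ in direction. Of 5 proteases that cut CXC ligands 3 rose, *Adam17* (log2FC 0.29), *Dpp4* (6.88) and *Mmp9* (2.90). *Mmp9* was at 0 in all 6 controls and at 0 to 32.4 normalized counts in CNV d3, so its log2FC depends on the pseudocount. In 2 of the CNV d3 samples it was at or under the limit of 3 reads. *Dpp4*, which trims the start of several chemokines, was at 0 to 1.13 normalized counts in control and 35.5 to 584 in CNV d3. *Adam10*, the sheddase of CXCL16, had a log2FC of 0.18 (adjusted p = 0.333, limma).

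Over all genes, 8.29% rose and 4.57% fell. Of 14 interferon-induced genes 9 rose and 0 fell, with a median log2FC of 1.40. The 9 included *Ifit2* (log2FC 1.44), *Ifit3* (1.25), *Rsad2* (1.36) and *Ifit1* (1.06), which encode antiviral proteins. Of 15 genes of interferon signalling 5 rose, among them the transcription factor *Irf7* (log2FC 1.82) and the receptor chain *Ifnar1* (0.48), and 2 fell, the receptor chains *Ifngr1* (-0.48) and *Ifnar2* (-0.38), with a median of 0.22 for the list. Of 14 NF-kappaB genes 3 rose, the cytokines *Tnf* (log2FC 1.35) and *Il1b* (1.47) and the regulator *Nfkbiz* (0.75). The 5 that fell were *Il6* (-3.07), the inhibitor *Nfkbia* (-0.88), the subunits *Nfkb1* (-0.66) and *Rela* (-0.53), and the receptor *Tlr4* (-0.59), and the median of the list was -0.11. Over all 6 lists these were 20 rises and 7 falls. The counts were 3 and 4 with CNV d3 replicates 1 to 3 alone, and 6 and 4 with *Ddx3y* as a covariate. Without CNV d3 replicate 3, 4, 5 or 6 the rises numbered 12, 12, 13 and 9, and the falls numbered 4 without replicate 3, 5 or 6. The share of all genes called in these other fits is not given, so the lower counts cannot be read as particular to the lists. The summed interferon-induced genes were 23152 and 26922 normalized counts in control replicates 1 and 3 and 9606 to 11992 in the other controls, against 18344 to 37977 in CNV d3. *Cxcl10* was high in control replicates 1 and 3 as well, and also in control replicate 2 (1492), where the sum of the interferon-induced genes was 10802. Over the 12 samples, centred on the group means, the Pearson r of *Cxcl10* with this sum was 0.76. It was -0.01 with the summed interferon signalling genes and 0.32 with the summed NF-kappaB genes. Other sums came close in size, with 0.69 for the further CXC ligands, 0.67 for border macrophage markers and -0.75 for the 2 B cell markers. The value was thus not particular to the interferon-induced genes, and a link was not tested.

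**Figure D5:**
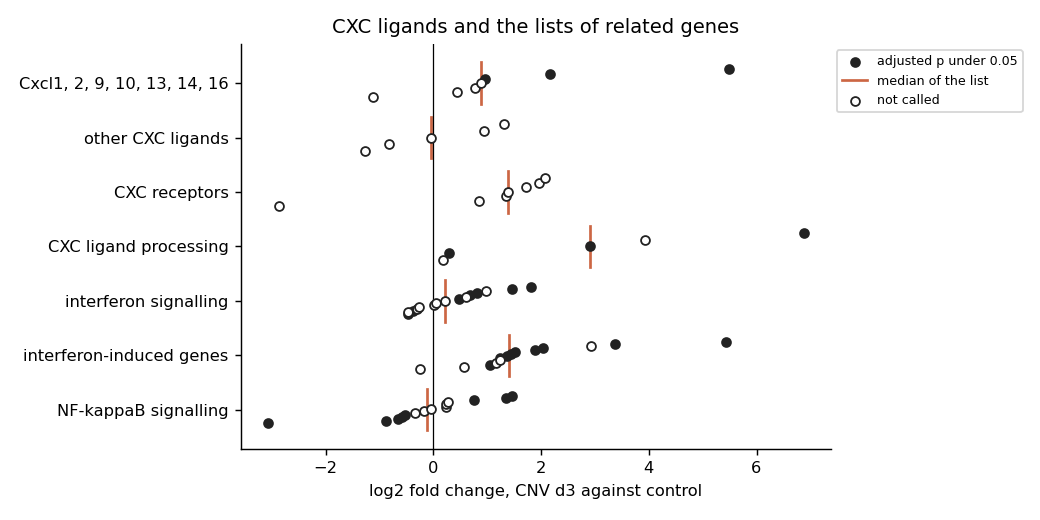
Log2 fold change of CNV d3 against control (x-axis) for the 7 members and for the genes of 6 related lists. Filled points passed the test, open points did not, and the orange bar is the median of a list, which for the 7 members is the value of *Cxcl2*, a gene near the detection limit. The interferon-induced genes lie mostly to the right of 0, and no other CXC ligand or receptor passed the test.

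In bulk samples a change in the number of cells of a type and a change in RNA per cell cannot be told apart. The marker counts stand beside 8.29% of all genes that rose and 4.57% that fell. Of 6 microglial markers 5 fell and 0 rose, and their sum was 1106370 to 1258230 normalized counts in control and 585529 to 905665 in CNV d3. Of 7 monocyte markers 3 rose, with a sum of 36.1 to 293 in control and 558 to 2776 in CNV d3, and *Ly6c2* and *Chil3* were at 0 in all controls. Of 6 dendritic cell markers 4 rose, with a sum of 5.63 to 476 in control and 198 to 2092 in CNV d3. These markers moved with *Cxcl13*, *Cxcl14* and *Cxcl16* between the groups, and their part in the rise of these genes was not tested. Within CNV d3, replicate 4 had the lowest dendritic cell sum (198) and, close to replicate 1 (561), the lowest monocyte sum (558). It was the highest sample in *Cxcl13* and *Cxcl9* and the lowest in *Cxcl14* (245). Replicate 3 had the highest monocyte sum (2776) and was the highest in *Cxcl14* (592) and *Cxcl10* (2640). Replicate 6 had the highest dendritic cell sum (2092), a monocyte sum of 2312, the lowest *Cxcl13* (63.1) and *Cxcl14* at 330. Pearson r with these sums was taken over the 12 samples after centring on the group means. For the monocyte sum it was -0.40 for *Cxcl9*, 0.44 for *Cxcl10*, -0.09 for *Cxcl13*, 0.26 for *Cxcl14* and 0.11 for *Cxcl16*. For the dendritic cell sum it was -0.44, -0.22, -0.12, 0.08 and -0.29. Some other marker sums gave larger values, picked here for their size and not tested. For border macrophages it was 0.67 for *Cxcl10*, -0.69 for *Cxcl13* and 0.54 for *Cxcl16*. *Cxcl9* had 0.585 with pigment epithelium and 0.56 with Mueller glia and astrocytes, and *Cxcl14* had -0.53 with microglia. The border macrophage sum was 1726 in control replicate 3, the highest control in *Cxcl10*, and 35.7 to 706 in the other controls. Sums of neutrophil markers (0 to 22.3 in control, 0 to 9.84 in CNV d3) and of T and NK cell markers (0 to 4.29 and 0 to 32.6) stayed low and 0 of them were called. Of the other lists, 1 of 5 border macrophage markers rose. Mueller glia and astrocytes (6 genes) and endothelium (4 genes) had 1 rise and 1 fall each. B cells, photoreceptors and pigment epithelium had no call.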

How the data were processed

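The authors mapped single reads with STAR 2.7.2b, counted reads per gene with featureCounts 1.6.4 on Gencode annotation without using strand, and normalized with DESeq2 1.22.2. The deposited signal is therefore a count scaled by 1 factor per sample. In all 12 samples 100% of values were whole multiples of 1 read (tolerance 0.001 of a read), so reads were recovered. Deposited group means, log2 fold changes and adjusted p-values of the authors were not used.

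Groups came from the labels, and samples listed in 2 parts counted as 1. The comparison used limma 3.58.1 in R 4.3.3 on log2(value + 1) with a variance trend over all genes, with no further filter and Benjamini-Hochberg adjustment. It called 2264 genes higher and 1247 lower. Alternatives on recovered reads were edgeR 4.0.16, which called 1952 and 1181, DESeq2 1.42.0, which called 2493 and 2170, and voom. DESeq2 gave an adjusted p to 17186 genes, and its shares were 14.5% and 12.6%. Those of edgeR were 7.15% and 4.33% of 27299 genes. Other alternatives were different scalings, pseudocounts and filters, no trend, thinning to 10963178 reads, a replicate block, *Ddx3y* as a covariate and each sample left out. The tests were tested on simulated data. Same-numbered samples did not deviate together (r from -0.01 to 0.05), so the number was not a block.

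Named are the 7 members, up to 4 called genes of each related list by mean level, and the 3 genes most like each member with a mean of at least 10 normalized counts. Other genes named were chosen after their values were seen. The members and lists were chosen with earlier results of these data known. Coordinates are from Gencode M21, promoters from RefSeq.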

Additional observations from a re-analysis of the deposited data

Results flagged for a closer look

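In each group of 6 samples, the gap of the highest and the lowest sample to its neighbour was set against the range of the group on the log2(normalized counts + 1) scale, with the 95% critical value of Dixon's test, which chance exceeds in about 1 in 20 groups. *Cxcl14* in CNV d3 replicate 3 had 592 normalized counts, and its gap to the other samples of its group was past this value. *Cxcl1* in CNV d3 replicate 6 had 4.98 normalized counts, and *Cxcl2* in control replicate 3 had 1.13, worth 1 read. In both of these groups the other 5 samples were at 0, so any sample with a read would have passed, and these cases are given as values only.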

How the results depend on the processing

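The 3 members that rose, the 0 that fell and the 2 increased DEG were found under all alternatives tried. All 171 alternative values of single members kept their side of the threshold of adjusted p. They include 23 values each of *Cxcl1* and *Cxcl2*, which say little because these genes were at or near the detection limit. The fits with *Ddx3y* as a covariate and with CNV d3 replicates 1 to 3 alone gave nearly the same log2 fold changes. For *Cxcl14* these were 2.417 and 2.416, so the 2 fits are not separate checks. The log2 fold change ranged from 3.46 to 6.09 for *Cxcl13*, from 1.99 to 2.42 for *Cxcl14*, from 0.90 to 1.01 for *Cxcl16*, from 0.59 to 1.00 for *Cxcl10* and from -1.75 to -0.14 for *Cxcl9*. The weakest value of *Cxcl9* came from edgeR. The adjusted p of *Cxcl10* ranged from 0.0797 to 0.569. Adjusted p-values of *Cxcl10* relative to *Cxcl9* ranged from 0.0606 to 0.398.

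The number of other pathway genes called depended on the libraries used. The number called higher was 20 with all samples, 6 with *Ddx3y* as a covariate, 3 with CNV d3 replicates 1 to 3 alone, a comparison chosen after seeing the data, and 9 to 21 with 1 sample left out. The number called lower was 7, and it was 4 in the first of these fits, 4 in the second, 4 with no variance trend, and 4 to 7 with 1 sample left out. Fewer samples enter some of these fits, the share of all genes called in them is not given, and the cause of the lower counts was not tested. With the replicate block, 3 members rose, the log2 fold change of *Cxcl13* was 5.48 (adjusted p = 0.0093, limma), and 18 genes of the other lists were called higher. Of the 6 replicate numbers, 1 correlated best with its own number. *Cxcl1* and *Cxcl2* had 0 or 1 read in each control, so that a fall could not have been seen.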
